A study of Mus musculus with 6 samples.

Results

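Potassium and voltage-gated calcium channel subunits were examined in RNA sequencing of the mouse embryonic forebrain. The genes were chosen by symbol: every mouse gene whose symbol begins with Kcn or Cacn, leaving out Kcnq1ot1, Kcnj8, Kcnj13, Kcne2 and symbols that end in os, ps or as. This rule gave 118 of the 33084 genes in the count table, 92 of them Kcn and 26 Cacn genes. Of the 118, 116 are protein coding and 2 are antisense RNAs, Kcnmb4os1 and Kcnmb4os2, whose symbols end in a digit and so stay in by the wording of the rule. The forebrains were taken at embryonic day 15.5, with 3 libraries of genotype Dyrk1a<DlxCre/+> (called mutant below) and 3 wt libraries. In the mutants, Dyrk1a, a dual-specificity protein kinase that acts in neuronal development, is inactivated conditionally in the Dlx5 domain. This territory gives rise to GABAergic neurons of the ventral forebrain. The genotype is written with 1 wild-type allele (+), so the inactivation is read as heterozygous. The labels do not say whether wt embryos carry a Cre driver or a conditional allele, or whether embryos share a litter. In whole forebrain, fewer cells of a type and less RNA per cell cannot be told apart, and the libraries hold the Dlx5 domain together with the rest of the tissue.

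Potassium channels let potassium out of the cell, set the resting potential and end the action potential; voltage-gated calcium channels open on depolarization and link it to transmitter release, gene transcription and, in immature neurons, migration and outgrowth. A pore is built from alpha subunits, and its traffic, gating and partners are set by auxiliary subunits: Kcnab, Kcnip, Kcne and Kcnmb for potassium channels and the alpha2delta, beta and gamma families for calcium channels. Many gamma proteins are better known as TARPs, auxiliary subunits of AMPA-type glutamate receptors. As young neurons leave the cell cycle and mature, they add the fast voltage-gated channels of adult firing.

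A feature that most potassium alpha subunits share, and that the calcium subunits lack in this form, is the selectivity filter, a stretch of 5 codons in the pore loop whose backbone oxygens strip water from potassium ions. It was searched in frame, on the coding strand only, in the longest coding sequence of each gene in GENCODE M21 (GRCm38), as the codon ACN, TCN or AGN, followed by GTN, ATN or CTN, then GGN, then TAN or TTN, then GGN; these spellings were set with the families' own sequences in view. A match was present in 71 of the 90 potassium members with a coding sequence (78.9%), in 0 of 25 calcium members and in 104 of 18070 genes outside the list (0.576%). The matches were in all 8 Kcna, 3 Kcnd, 10 silent Kv, 8 Kcnh, 5 Kcnq and 13 Kcnj genes, and in none of the Kcnab, Kcne and Kcnip auxiliary subunits. Among the other pores all 7 Kcnn, Kcnt and Kcnu genes had a match, as did 5 of 6 Kcnb and Kcnc genes (Kcnc2 had none) and 11 of 13 Kcnk genes (Kcnk1 and Kcnk7 had none); no match says only that these codons were not found. Kcnk genes carry tandem pore loops in 1 protein, and 10 of the 13 held 2 or more matches. The windows below, 30 bases with the 5 filter codons in capitals, belong to genes on which the account turns, 1 for each of 6 families (chromosome and codon number are given for each).
Kcns3 (silent Kv, chromosome 12, codon 370): atgaccACAGTGGGCTATGGAgacacccac
Kcnh2 (ERG, chromosome 5, codon 626): ctcaccAGCGTGGGCTTTGGCaatgtctct
Kcnd2 (Kv4, chromosome 6, codon 370): atgacaACACTGGGGTATGGCgacatggta
Kcna3 (Kv1, chromosome 3, codon 397): atgacaACTGTTGGTTATGGTgatatgcac
Kcnj3 (inward rectifier, chromosome 2, codon 143): gaggccACCATCGGCTATGGCtaccgctac
Kcnk2 (tandem pore, chromosome 1, codon 157): atcacaACCATAGGATTTGGAaacatctcc
Kcnk2 (tandem pore, chromosome 1, codon 266): ctgacgACCATTGGATTTGGAgactacgtg
The fourth codon was TTN in all 8 Kcnh genes, as in the Kcnh2 window, and TAN in the 8 Kcna and 10 silent genes. The silent subunit Kcns3 therefore holds the same kind of filter codons as the conducting Kcna3. No difference between genotypes in these data bears on the filter itself, since the counts are of whole genes.

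The libraries held 28339650, 25360030 and 27261073 counts in mutant replicates 1, 2 and 3, and 33260333, 24646616 and 38315004 counts in wt replicates 1, 2 and 3. Dyrk1a had 186, 159 and 182 CPM (counts scaled to library size by TMM) in mutant libraries, against 169, 183 and 180 CPM in wt libraries, a log2 fold change of -0.015 ± 0.091 (SE). The ranges overlapped, and an exact permutation test (two-sided, 20 ways to assign the libraries) had p = 0.90, with 0.10 the smallest p possible. The count is of the whole gene and does not single out a deleted part. The replicate 3 libraries of both groups stood apart from the other 4 on a component holding 37.4% of the variance, and the results on replicate 3 are given below. Of the neuron markers 10 of 10 were detected, and none was at 0 in every library.

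No channel subunit was called different between genotypes. Of 118 members, 103 passed the filter on low counts, and 0 of the 103 had an adjusted p below 0.05 in edgeR's quasi-likelihood test, where 0.0% of all 19616 tested genes were called; DESeq2 and limma-voom also called 0. At an unadjusted p below 0.05 there were 2 members (1.94%), Kcns3 and Kcnh2, both higher in mutants, beside 1.92% of all tested genes (1.19% higher and 0.729% lower). Without the replicate 3 libraries, which stood apart, 5 members had an unadjusted p below 0.05, beside 7.86% of all genes tested there, and 0 members were called, beside 0.0153%; without wt replicate 3 alone it was 3 members, beside 5.33%, and again 0 were called. The 103 log2 fold changes lay above 0 for 50 and below 0 for 53 members, with a median of -0.004, beside a median of -0.008 over all tested genes. The calcium members had a median of 0.0 (24 tested) and the potassium members one of -0.004 (79 tested). The log2 fold change was between -0.2 and 0.2 for 87 members. For 57 of the 103 (55.3%, against 63.9% of all tested genes) the 95% interval of the difference lay wholly within 1.5-fold in either direction. For the other members a difference of that size was not excluded at this depth and number of libraries. One sign in all 3 replicate numbers, as pointed out for single genes below, was seen for 10.7% of members with the mutant higher and 12.6% with the mutant lower, beside 12.1% and 13.0% of all tested genes, and so was no more common among the members.

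**Figure D1:**
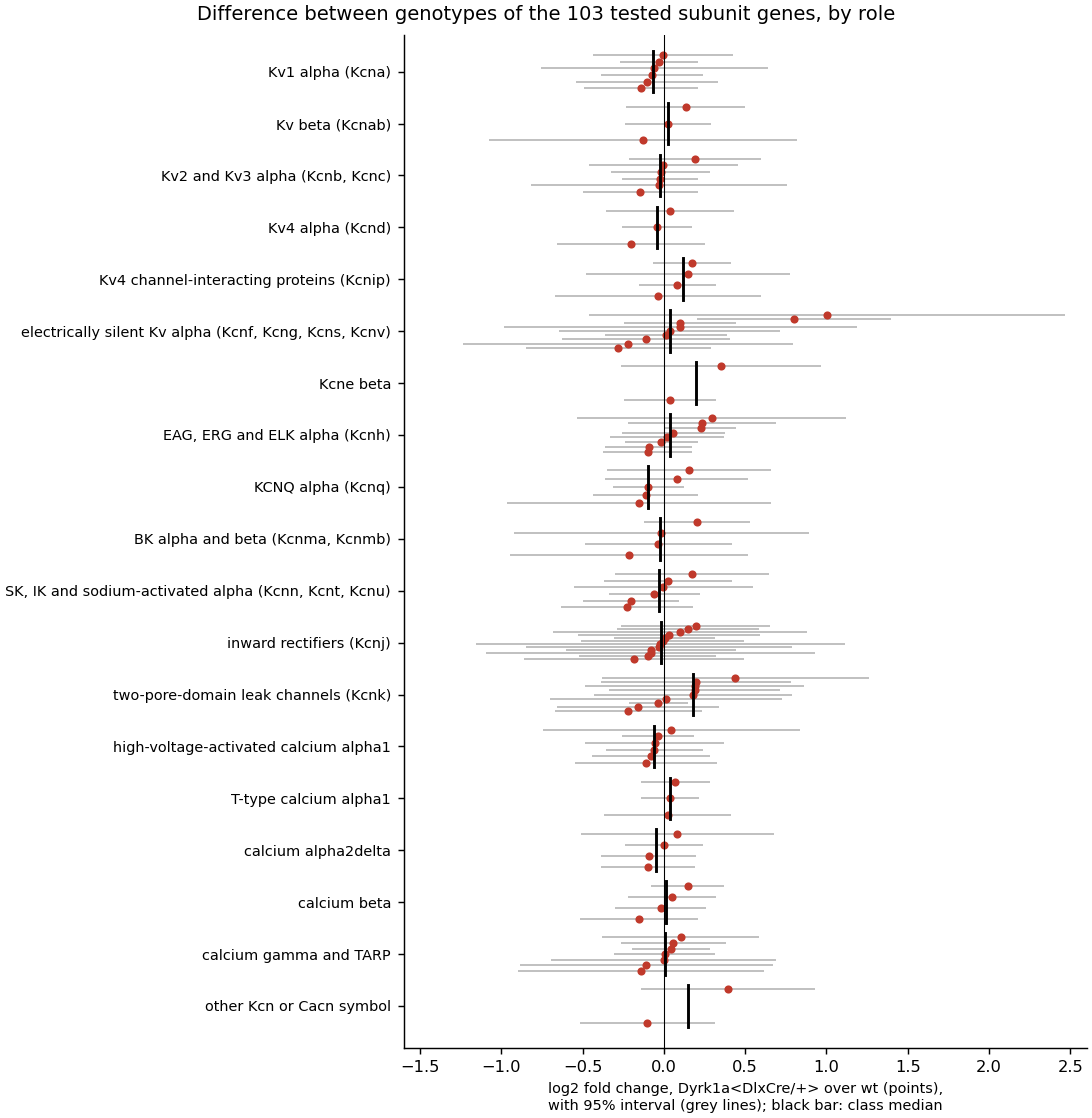
Log2 fold change, Dyrk1a<DlxCre/+> over wt (horizontal axis), of each of the 103 tested subunit genes (points) with its 95% interval (grey lines), by role, with the class median as a black bar. The highest class median is 0.196 (Kcne, with only 2 tested genes, at 0.040 and 0.351). The interval of Kcns3 is the higher of the 2 that exclude 0, the other being that of Kcnh2.

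Levels are compared between genes per length, in TPM (a share of all transcripts, computed from the counts and the exonic length), and between genotypes on the TMM-scaled counts. By mean TPM over the 6 libraries, 43 members were at 10 TPM or more and 91 at 1 TPM or more. The 10 highest members held 42.4% of the summed TPM of the list, and 8 of them were calcium subunits. Among them, in descending order, were Cacnb3 (90.0 TPM), Cacna1b (76.0 TPM), Cacna1h (62.7 TPM), Cacng4 (61.3 TPM), Cacna1e (57.0 TPM), Cacng7 (55.7 TPM), Cacna2d1 (53.4 TPM), Cacna1g (46.0 TPM) and Kcnq3 (45.7 TPM). Neighbours in this order overlapped from library to library, as in the plot of levels. Of the 20 highest by TPM, 16 were also among the 20 highest by CPM, without length. The summed level of all members was 4216, 4174 and 3424 CPM in mutant libraries, against 4158, 4401 and 3576 CPM in wt libraries, so the lowest sum of each group was in its replicate 3.

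**Figure D2:**
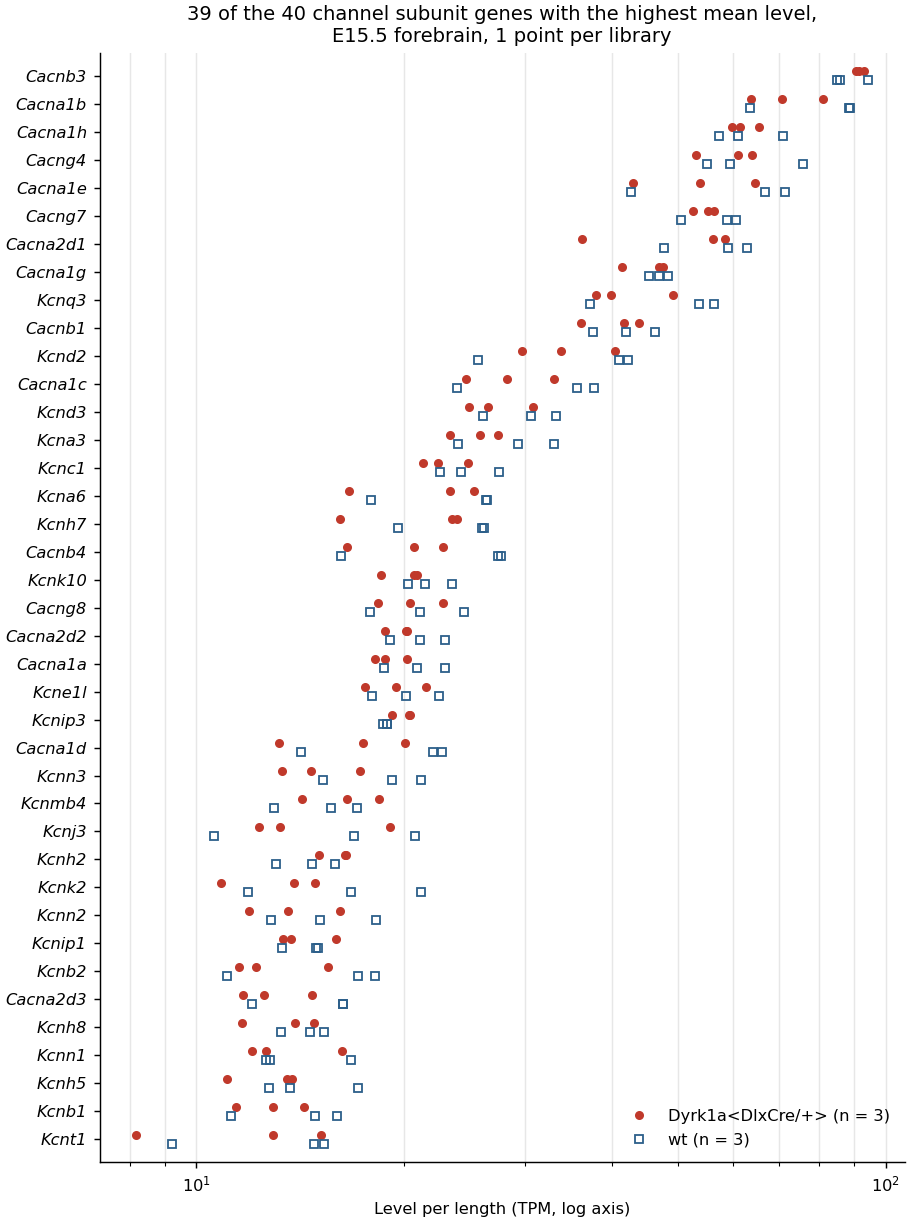
Level per length (TPM, log axis) of 39 of the 40 subunit genes with the highest mean, 1 point per library, Dyrk1a<DlxCre/+> as filled circles and wt as open squares (n = 3 each). The circles and squares of a gene overlap in nearly every row, and Cacnb3 and Cacna1b lead the rows shown.

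High-voltage-activated calcium alpha1 subunits carry calcium at synapses and along dendrites. Cacna1b, the N-type pore of transmitter release (GRCm38 chromosome 2, 24603887 to 24763152, reverse strand), had 247, 250 and 192 CPM in mutant libraries, against 256, 256 and 205 CPM in wt libraries. Both groups were lowest in replicate 3, and they overlapped (log2 fold change -0.059 ± 0.131, SE). It made up 37.8% ± 1.14 of the TPM of its class in mutants and 37.7% ± 1.31 in wt (SD, n = 3 each). Cacna1e, the R-type pore, followed at 53.8 ± 10.8 TPM in mutants and 60.3 ± 15.4 TPM in wt (SD, n = 3 each). The L-type genes Cacna1c and Cacna1d and the P/Q-type gene Cacna1a had log2 fold changes of -0.079, -0.109 and -0.037. The muscle L-type pore Cacna1s was at 0.202 TPM and the retinal Cacna1f, not tested, at 0.0605 TPM. In this class 1 of 6 tested members lay above 0 and 5 below, with a median of -0.058, and 0 of 6 were called.

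T-type alpha1 subunits open near the resting potential and support rhythmic and low-threshold firing. Cacna1h had 196, 208 and 181 CPM in mutant libraries, against 173, 202 and 182 CPM in wt libraries. Replicate 2 was the highest of each group and the groups overlapped (log2 fold change 0.070 ± 0.094, SE; -0.032 when GC content and length were taken into account). It held 52.9% ± 0.563 of the class TPM in mutants and 52.3% ± 1.47 in wt (SD, n = 3 each). Cacna1g had a log2 fold change of 0.037 ± 0.078 and Cacna1i one of 0.023 ± 0.173 (SE). All 3 lay above 0 and none was called.

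The calcium channel beta subunits bind the pore inside the cell and bring it to the membrane. Cacnb3 (chromosome 15, 98630840 to 98644529, forward strand) had 111, 133 and 111 CPM in mutant libraries, against 100, 110 and 111 CPM in wt libraries. Its groups did not overlap, but mutant replicate 3 at 110.8 CPM and wt replicate 3 at 110.6 CPM were separated by little. The log2 fold change was 0.15 ± 0.10 (SE, unadjusted p = 0.175, edgeR quasi-likelihood test), and -0.026 with GC and length taken into account. Groups did not overlap, with mutants higher, for 3 members (2.91%: Kcns3, Kcnh2 and Cacnb3), beside 3.19% of all tested genes. With mutants lower they did not overlap for 0 members, beside 3.7% of all tested genes. Cacnb3 was 58.0% ± 2.47 of the beta subunit TPM in mutants and 55.2% ± 3.24 in wt (SD, n = 3 each), ahead of Cacnb1, Cacnb4 and Cacnb2, whose log2 fold changes were 0.049, -0.152 and -0.018.

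The alpha2delta subunits sit outside the membrane and raise the number of channels at the surface; Cacna2d1 is a target of gabapentin. Cacna2d1 had 214, 160 and 219 CPM in mutant libraries, against 213, 228 and 192 CPM in wt libraries. Mutant replicate 2 was the lowest of the 6, and without it the log2 fold change was 0.036 in place of -0.094 ± 0.130 (SE). Cacna2d2, Cacna2d3 and Cacna2d4 had log2 fold changes of 0.000, -0.100 and 0.083. In the gamma and TARP family, Cacng4 had 70.1, 77.7 and 57.2 CPM in mutant libraries, against 61.7, 78.8 and 63.8 CPM in wt libraries, and Cacng7 had 41.3, 48.9 and 38.8 CPM, against 41.8, 43.1 and 39.95 CPM in wt. Both genes overlapped between groups (log2 fold changes 0.005 ± 0.137 and 0.047 ± 0.106, SE). Cacng8, Cacng2 and Cacng5, TARPs of the same family, had 0.058, 0.103 and -0.139, and Cacng1, the gamma subunit of skeletal muscle channels, had -0.108.

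Kv1 (Kcna) channels shape axonal firing. Kcna3, the highest of the class at 27.1 TPM, had 16.0, 17.5 and 13.4 CPM in mutant libraries, against 16.2, 18.3 and 14.8 CPM in wt libraries. Replicate 3 was again the lowest in each group, and the log2 fold change was -0.073 ± 0.138 (SE). All 6 tested Kcna genes lay below 0, between -0.140 (Kcna1) and -0.003 (Kcna6), with a median of -0.067, and 0 of 6 were called. The beta subunits that dock onto Kv1 in the cytoplasm had log2 fold changes of 0.024 ± 0.116 (Kcnab2), 0.134 ± 0.161 (Kcnab3) and -0.126 ± 0.418 (Kcnab1, SE for each). Kcnab2 had 17.6, 19.7 and 15.9 CPM in mutant libraries, against 16.7, 18.2 and 17.5 CPM in wt libraries.

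Kv2 and Kv3 alpha subunits carry delayed rectification in the soma and fast repolarization. Kcnc1, the fast Kv3 pore typical of rapidly firing neurons, had 71.8, 75.6 and 61.0 CPM in mutant libraries, against 66.7, 75.8 and 69.4 CPM in wt libraries, and the groups overlapped (log2 fold change -0.023 ± 0.103, SE). Of the 6 tested members 1 lay above 0 and 5 below, and 0 were called. Kv4 (Kcnd) channels give the transient A-type current of dendrites. Kcnd2 had 63.9, 62.0 and 46.2 CPM in mutant libraries, against 61.6, 63.4 and 42.8 CPM in wt libraries, with replicate 3 lowest in both groups and a log2 fold change of 0.038 ± 0.173 (SE). Kcnd3 had -0.040 ± 0.095 and Kcnd1 -0.20 ± 0.20 (SE), and Kcnd1 had 4.61, 4.29 and 3.02 CPM in mutant libraries, against 3.99, 5.23 and 4.53 CPM in wt libraries. The calcium-binding Kcnip proteins regulate Kv4. Kcnip3, also known in mouse as a calcium-dependent repressor of transcription, had 22.2, 24.3 and 21.8 CPM in mutant libraries, against 19.2, 19.5 and 21.8 CPM in wt libraries. Mutant replicates 1 and 2 were above all wt libraries, replicate 3 was level with wt replicate 3, and the log2 fold change was 0.17 ± 0.11 (SE, unadjusted p = 0.133). Of the 4 Kcnip genes 3 lay above 0, with a class median of 0.116, and 0 were called.

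Electrically silent Kv subunits form no channel alone and assemble with Kv2 to alter its gating. Kcns3 (ENSMUSG00000043673, chromosome 12, 11090202 to 11151056, reverse strand), whose filter codons are shown above, had the smallest p of all members. It had 0.879, 0.787 and 0.848 CPM in mutant libraries, against 0.510, 0.486 and 0.448 CPM in wt libraries. Every mutant library was above every wt library, and in each replicate number the mutant was higher. The values rest on few reads: 25, 20 and 23 counts in mutant libraries, against 17, 12 and 17 counts in wt libraries. The log2 fold change was 0.80 ± 0.26 (SE, 95% interval 0.20 to 1.40, unadjusted p = 0.0142, adjusted p = 0.9999, edgeR quasi-likelihood test); DESeq2 gave an unadjusted p of 0.0689. The most abundant silent subunits, Kcnv1 (8.53 TPM) and Kcnf1 (7.95 TPM), had log2 fold changes of 0.036 ± 0.299 and 0.101 ± 0.151 (SE). Kcnv1 had 14.6, 13.2 and 8.81 CPM in mutant libraries, against 13.9, 15.2 and 6.77 CPM in wt libraries, and Kcnf1 had 12.5, 13.3 and 10.9 CPM, against 11.4, 13.2 and 9.62 CPM in wt. The highest fold change of the list was that of Kcng2, at 0.949, 1.10 and 0.148 CPM in mutant libraries, against 0.210, 0.608 and 0.316 CPM in wt libraries. Its mutant replicate 3 was the lowest of all 6 libraries, so the groups overlapped and the log2 fold change of 1.00 had an SE of 0.65 (unadjusted p = 0.155).

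Kcns2, another silent subunit (chromosome 15, 34837355 to 34843407, forward strand), had 6.93, 7.21 and 3.98 CPM in mutant libraries, against 8.12, 8.39 and 5.53 CPM in wt libraries. In each replicate number the mutant was lower, while replicates 1 and 2 of the mutants were above wt replicate 3. The log2 fold change was -0.28 ± 0.25 (SE, unadjusted p = 0.296), and -0.30 ± 0.13 with the replicate number as a block (unadjusted p = 0.0447). With that block 5 members had an unadjusted p below 0.05 (4.85%, beside 3.9% of all tested genes): Kcns3, Kcnh2, Kcnn3, Kcnk2 and Kcns2. Their adjusted p in the blocked edgeR fit was 0.987 for each, and 0 of 103 members were called. The labels do not say what a replicate number marks, so the block is an alternative only.

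Kcnh channels comprise the EAG, ERG and ELK groups; ERG channels repolarize the heart and damp repetitive firing in neurons. Kcnh2, the ERG gene known for the cardiac rapid delayed rectifier (ENSMUSG00000038319, chromosome 5, 24319589 to 24351604, reverse strand), had 24.4, 26.0 and 24.2 CPM in mutant libraries, against 20.7, 22.5 and 20.6 CPM in wt libraries. The groups did not overlap, and replicate 2 was the highest of each. The log2 fold change was 0.23 ± 0.10 (SE, 95% interval 0.007 to 0.445, unadjusted p = 0.0445, adjusted p = 0.9999, edgeR quasi-likelihood test). With offsets for GC content and gene length it was 0.061 (unadjusted p = 0.522, same test). The GC content of the longest Kcnh2 transcript is 61.3%, against a median of 52.6% over the tested members. Kcnh2 made up 18.9% ± 0.967 of the Kcnh TPM in mutants and 16.3% ± 0.757 in wt (SD, n = 3 each). Kcnh7, the highest member of the class, made up 24.7% ± 3.24 in mutants and 26.7% ± 1.13 in wt. Kcnh7 had 110, 87.6 and 110 CPM in mutant libraries, against 116, 115 and 96.9 CPM in wt libraries, with mutant replicate 2 the lowest and a log2 fold change of -0.094 ± 0.118 (SE). Across the 8 Kcnh genes 5 lay above 0 and 3 below.

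**Figure D3:**
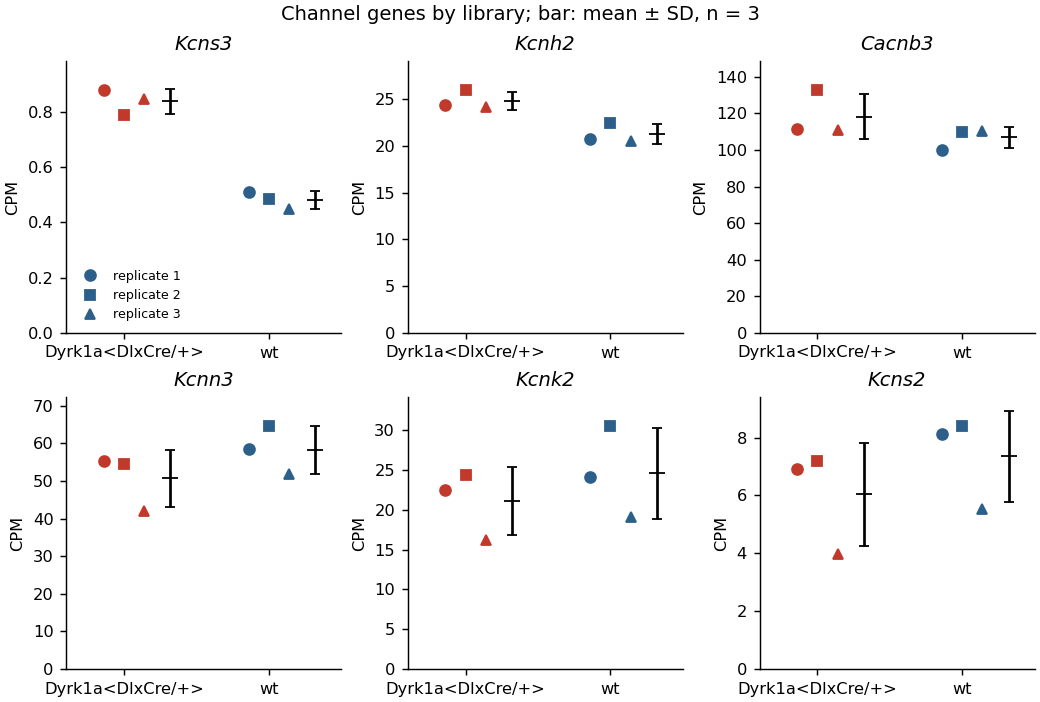
CPM by library of Kcns3, Kcnh2, Cacnb3, Kcnn3, Kcnk2 and Kcns2, Dyrk1a<DlxCre/+> at the left and wt at the right of each panel, with replicates 1, 2 and 3 as circles, squares and triangles and bars for the mean ± SD (n = 3). The groups are separate for the 3 genes in the upper row and overlap for the 3 in the lower row, where replicate 3 (triangle) is the lowest point of each group.

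Kcnq genes encode pores of the M-current, which restrains repeated firing. Kcnq3 had 222, 209 and 169 CPM in mutant libraries, against 229, 241 and 178 CPM in wt libraries. Replicate 3 was the lowest of each group and the groups overlapped, with a log2 fold change of -0.112 ± 0.141 (SE). It held 30.5% ± 1.33 of the Kcnq TPM in mutants and 30.9% ± 2.19 in wt (SD, n = 3 each), a difference smaller than the spread between libraries. Kcnq1, the heart and ear member, was at 1.18 TPM. Among the Kcne auxiliary subunits, Kcne1l had 10.2, 9.65 and 9.07 CPM in mutant libraries, against 9.05, 10.1 and 9.01 CPM in wt libraries, a log2 fold change of 0.040 ± 0.124 (SE).

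Inward rectifiers (Kcnj) hold the resting potential, and some are opened by G proteins or by a fall in ATP. Kcnj3, a G-protein-gated pore, had 30.6, 24.6 and 19.4 CPM in mutant libraries, against 25.7, 31.6 and 17.97 CPM in wt libraries. Kcnj11, the pore of the ATP-sensitive channel, had 10.9, 10.1 and 7.01 CPM in mutant libraries, against 8.63, 9.32 and 6.59 CPM in wt libraries. Kcnj11 was higher in the mutant of each replicate number, yet mutant replicate 3 was below wt replicates 1 and 2, and its log2 fold change was 0.20 ± 0.20 (SE), against -0.008 ± 0.221 for Kcnj3. Of 12 tested Kcnj genes 5 lay above 0 and 7 below, with none called; the glial rectifier Kcnj10 was at 0.005 ± 0.136 (SE).

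Tandem-pore channels (Kcnk) are the leak channels of the resting membrane. Kcnk10 and Kcnk2 encode mechanosensitive leak channels of the TREK group. Kcnk10 had 56.1, 57.9 and 54.9 CPM in mutant libraries, against 60.0, 54.9 and 57.8 CPM in wt libraries, one of the narrowest spreads of the list, with a log2 fold change of -0.033 ± 0.081 (SE). Kcnk2 (chromosome 1, 189207930 to 189402273, reverse strand) had 22.5, 24.4 and 16.2 CPM in mutant libraries, against 24.1, 30.5 and 19.1 CPM in wt libraries. The mutant was lower in each replicate number, replicate 3 was the lowest of each group, and the log2 fold change was -0.22 ± 0.20 (SE, unadjusted p = 0.301; with the replicate block -0.22 ± 0.093, unadjusted p = 0.0437). Kcnk2 overlaps a gene on the opposite strand, A430027H14Rik. Of the 9 tested Kcnk genes 6 lay above 0, with a class median of 0.181, and 0 were called.

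Calcium-activated potassium channels end bursts of spikes. The BK pore Kcnma1 had 69.6, 66.0 and 44.2 CPM in mutant libraries, against 67.6, 70.2 and 46.3 CPM in wt libraries, and its brain beta subunit Kcnmb4 had 18.7, 19.6 and 14.3 CPM, against 15.2, 16.5 and 14.02 CPM in wt. The log2 fold changes were -0.033 ± 0.20 for Kcnma1 and 0.21 ± 0.14 for Kcnmb4 (SE). Kcnmb4 shares exonic sequence on opposite strands with the antisense RNA Kcnmb4os2, which had 2.64, 2.72 and 2.40 CPM in mutant libraries, against 1.86, 2.64 and 1.48 CPM in wt libraries (0.40 ± 0.24, SE); since no source states how strand was used in the counting, reads of the pair cannot be told apart. The SK pore Kcnn3 (chromosome 3, 89520164 to 89675132, forward strand), which carries a calcium-gated current of the afterhyperpolarization, had 55.3, 54.6 and 42.0 CPM in mutant libraries, against 58.4, 64.5 and 51.9 CPM in wt libraries. The mutant was lower in each replicate number and the groups overlapped, with a log2 fold change of -0.20 ± 0.13 (SE, unadjusted p = 0.155; with the replicate block -0.21 ± 0.081, unadjusted p = 0.0288). Kcnt2, a sodium-activated pore, had 17.4, 11.3 and 15.6 CPM in mutant libraries, against 19.8, 17.3 and 14.8 CPM in wt libraries (-0.23 ± 0.18, SE). Kcnrg, which in human cells interferes with Kv assembly, had 2.43, 2.44 and 2.07 CPM in mutant libraries, against 2.79, 2.27 and 2.37 CPM in wt libraries (-0.10 ± 0.18, SE).

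The 15 members that did not pass the filter were Cacna1f, Cacng6, Kcna10, Kcna7, Kcne1, Kcne3, Kcnj1, Kcnk15, Kcnk18, Kcnk4, Kcnk7, Kcnmb3, Kcnmb4os1, Kcnn4 and Kcnv2. None had more than 19 counts in a library or 53 counts in all, and Kcna10, Kcnk15 and Kcnmb3 had none in any library. A count of 0 allows a level of up to 3 counts, which is 0.105, 0.118 and 0.111 CPM in mutant libraries and 0.0899, 0.122 and 0.0791 CPM in wt libraries, for counting error only.

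Within each genotype, replicate 3 was the lowest library for many channel genes. Of 103 tested members, 60 (58.3%) had their lowest CPM in replicate 3 in mutants and in wt alike, beside 20.9% of all tested genes. A further 3 members (2.91%) had their highest there in both, beside 21.4% of all tested genes. A low replicate 3 was not particular to the channel subunits. The share lowest there in both groups was 65.4% of 52 other tested genes that act on these channels. It was 60.0% of 10 neuron markers, 80.0% of 5 oligodendrocyte precursor markers and 0.0% of 10 proliferating cell markers. Not all neuronal lists were alike: the share was 8.33% of 12 GABAergic ventral forebrain markers and 25.0% of 8 cortical projection neuron markers. In the remaining marker lists it ran from 12.5% (diencephalon) to 66.7% (skeletal muscle, 3 tested). Relative to the mean of replicates 1 and 2, replicate 3 had a median difference over the members of -0.314 log2 units in mutants and -0.243 in wt. The share with 0.5 log2 units or more below in both groups was 22.3% (23 members), beside 4.12% of all tested genes. These figures are descriptions with no test.

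**Figure D4:**
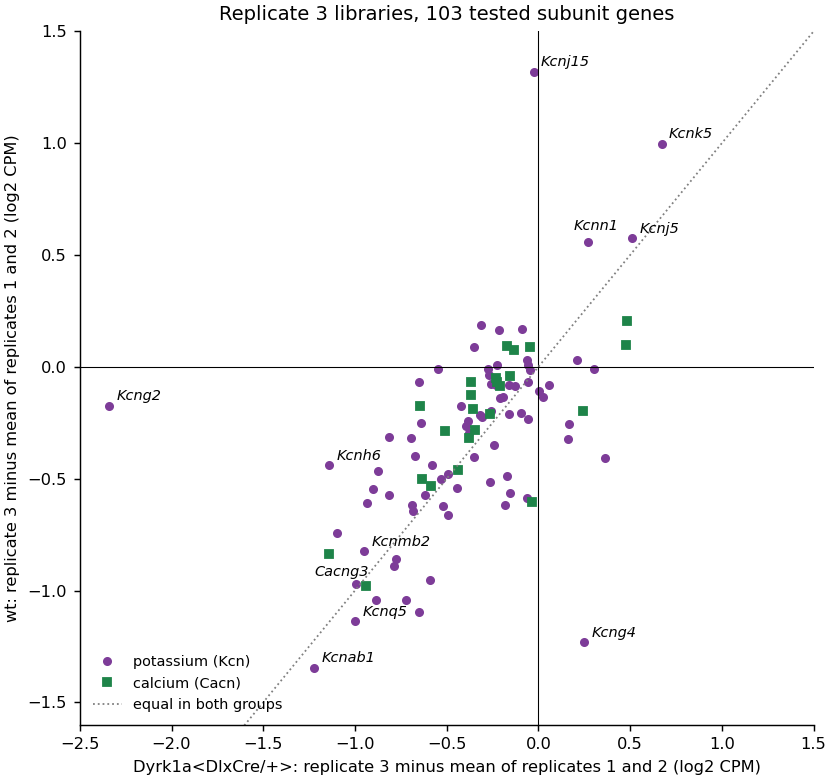
Log2 CPM of replicate 3 minus the mean of replicates 1 and 2, in Dyrk1a<DlxCre/+> (horizontal axis) and in wt (vertical axis), 1 point per tested subunit gene, potassium as circles and calcium as squares, with a dotted line where both are equal. Most points lie at the lower left, below 0 in both groups, with Kcnab1 and Kcnq5 at least 1 unit below in both and Kcnk5, Kcnn1 and Kcnj5 above 0 in both.

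Kcnab1 and Kcnq5 were 2-fold or more lower in replicate 3 of both groups. Kcnab1, a cytoplasmic Kv1 partner, had 6.68, 6.42 and 2.77 CPM in mutant libraries, against 6.35, 8.31 and 2.82 CPM in wt libraries. Kcnq5, an M-channel subunit of the cortex and hippocampus, had 17.7, 16.1 and 8.41 CPM in mutant libraries, against 16.0, 22.6 and 8.62 CPM in wt libraries. In both genes replicate 3 stood apart from the other libraries of its own group, and mutant and wt replicate 3 were close to each other. The BK beta subunit Kcnmb2 had 6.82, 5.24 and 3.06 CPM in mutant libraries, against 6.08, 7.74 and 3.85 CPM in wt libraries. Cacng3, a TARP of cortical neurons, had 4.85, 4.29 and 2.03 CPM, against 3.84, 5.03 and 2.43 CPM in wt libraries. Kcnh6, an ERG gene, had 2.64, 1.97 and 0.996 CPM, against 1.32, 2.11 and 1.21 CPM in wt libraries. These 5 genes were named because their range over the libraries was the widest among members at a mean of at least 1 CPM. Their log2 fold changes between genotypes had SEs of 0.305 to 0.418, beside a median of 0.192 over the members. Wide SEs and a library that stands apart follow in part from that choice, and none of the 5 was called. The genes highest in replicate 3 of both groups were Kcnk5, an acid-sensitive leak channel, Kcnn1, an SK pore, and Kcnj5, a G-protein-gated rectifier (named after their values were seen). Kcnk5 had 4.50, 3.94 and 6.75 CPM in mutant libraries, against 3.75, 3.69 and 7.49 CPM in wt libraries.

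Markers of proliferating cells, radial glia and neurons moved with replicate 3 as well, while those of some other cell types moved little. The median over 10 proliferating cell markers, relative to the wt mean, was -0.206, -0.113 and 0.50 log2 units in mutant libraries and -0.150, -0.303 and 0.487 in wt libraries, and all 10 were highest in replicate 3 of both groups. Their summed level was 1042, 1065 and 1757 CPM in mutant libraries and 1053, 961 and 1678 CPM in wt libraries. The 10 radial glia markers summed to 1520, 1635 and 1904 CPM in mutant libraries and 1468, 1418 and 1905 CPM in wt libraries. Of these 10, 6 were highest in replicate 3 of both groups and 2 were lowest there in both. The 10 neuron markers summed to 6406, 6073 and 5581 CPM in mutant libraries and 6401, 6481 and 5483 CPM in wt libraries, lowest in replicate 3 of each. Singly, 6 of the 10 were lowest in replicate 3 of both groups and 0 were highest there in both. No marker of these 3 lists was at 0 in every library. For GABAergic ventral forebrain markers, replicate 3 minus the mean of replicates 1 and 2 had a median of 0.052 log2 units in mutants and 0.087 in wt. It was -0.048 and -0.064 for endothelial and mural markers, but -0.477 and -0.433 for oligodendrocyte precursor markers. The part of these markers in the channel values was not tested. Between genotypes at the same replicate number, the median difference over the members was 0.097, -0.065 and -0.042 log2 units for replicates 1, 2 and 3.

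**Figure D5:**
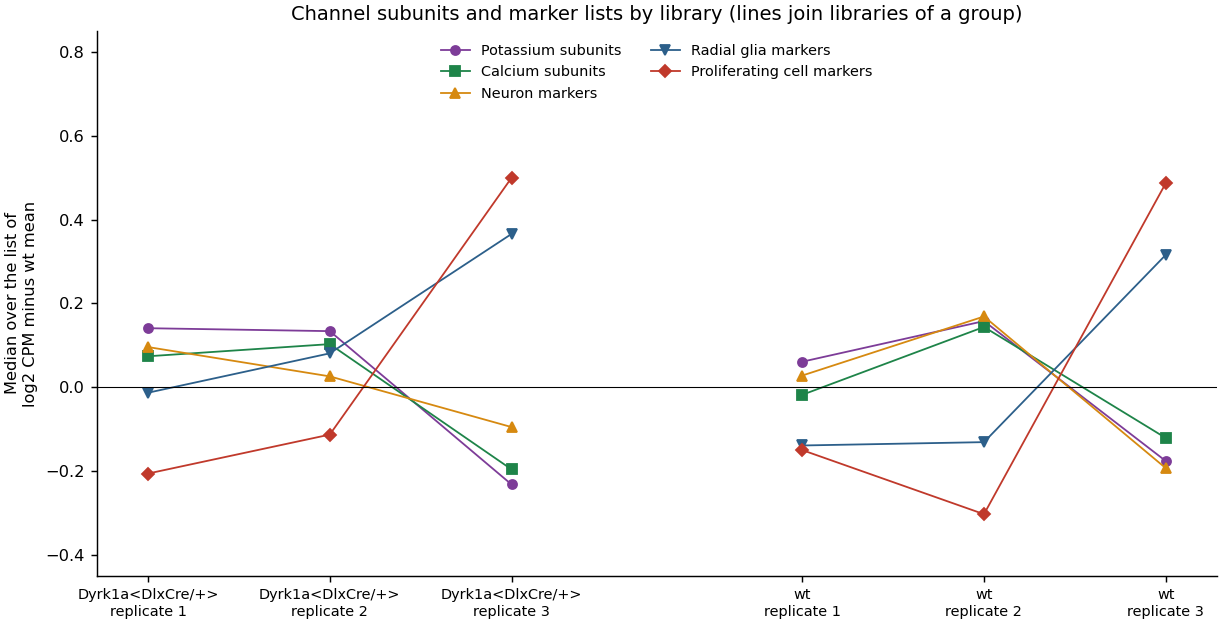
Median over each list of log2 CPM minus the wt mean (vertical axis), by library, with Dyrk1a<DlxCre/+> replicates at the left and wt replicates at the right; lines join libraries of 1 group for legibility and mark no order. Potassium and calcium subunits lie below 0 in replicate 3 of both groups, where proliferating cell markers reach 0.50 in the mutant and 0.487 in the wt library.

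The GABAergic lineage, in which Dyrk1a is targeted in the mutants beside 1 wild-type allele, was present. Of the markers of the GABAergic ventral forebrain, 12 of 12 were tested. Their summed level was 532, 524 and 537 CPM in mutant libraries and 447, 556 and 523 CPM in wt libraries. Of the 12, 11 lay above 0, the median being 0.065, and 0 were called; wt replicate 1 was the lowest library. Cortical projection neuron markers summed to 1032, 999 and 934 CPM in mutant libraries and 922, 1105 and 868 CPM in wt libraries. Skeletal muscle markers, the tissue in which Cacna1s and Cacng1 are best known, passed the filter for 3 of 6 genes and summed to 17.5, 19.1 and 13.4 CPM in mutant libraries and 14.9, 18.1 and 13.5 CPM in wt libraries.

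Genes that act on these channels without bearing a Kcn or Cacn symbol, such as calmodulins, adaptors and small GTPases of calcium channels and other partners, were taken from a written list. Of 56 such genes 52 were tested. Of these, 25 lay above 0 and 27 below, with a median of -0.013, and 0 were called. At an unadjusted p below 0.05 (edgeR quasi-likelihood test) 1 was higher and 0 lower, beside 1.19% and 0.729% of all tested genes. Groups did not overlap for 2 of the 52 with mutants higher and 2 with mutants lower, beside 3.19% and 3.7% of all tested genes. Stac, an adaptor of L-type channels, had 3.38, 4.13 and 2.80 CPM in mutant libraries, against 2.52, 2.76 and 2.08 CPM in wt libraries, with no overlap and a log2 fold change of 0.49 ± 0.21 (SE, unadjusted p = 0.0412, adjusted p = 0.9999, edgeR quasi-likelihood test). Stac3, the member of that family known from muscle, had 5.80, 6.73 and 6.20 CPM in mutant libraries, against 7.40, 7.34 and 7.14 CPM in wt libraries, with every mutant library lower (-0.23 ± 0.13, SE, unadjusted p = 0.122). Rem2, a GTPase that inhibits high-voltage-activated channels, had 9.77, 11.2 and 11.4 CPM in mutant libraries, against 8.99, 8.59 and 10.1 CPM in wt libraries (0.22 ± 0.13, SE, unadjusted p = 0.125). Rest, the repressor of neuronal genes in progenitors, had 41.9, 41.7 and 57.7 CPM in mutant libraries, against 45.2, 41.6 and 50.3 CPM in wt libraries; it was highest in replicate 3 of both groups, and the log2 fold change was 0.042 ± 0.142 (SE).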

How the data were processed

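RNA was extracted with Trizol and RNeasy columns, and stranded total RNA libraries depleted of ribosomal RNA were sequenced single-end on an Illumina HiSeq, per the labels' protocols, which also call the molecule polyA RNA. Per the submitters' processing notes, bcl2fastq 2.17.1.14, HISAT2 on GRCm38 (release 93), SAMtools 1.9 and HTSeq 0.9.1 were run. For the counting, the strand setting is not given in the sources, so the 23 members with an exonic overlap on the opposite strand, and the 2 on the same strand, have uncertain counts (among genes named in the text Cacna1a, Cacna1d, Cacna1s, Cacnb1, Cacnb4, Cacng2, Kcnab1, Kcnab3, Kcnd3, Kcne3, Kcnh7, Kcnj3, Kcnk2, Kcnmb4, Kcnmb4os2, Kcnn1, Kcnq1 and Kcnq5, and Kcnab2 and Kcnk4 on their own strand). The authors deposited raw counts of reads for each gene, as whole numbers without normalization, in 1 column per library.

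Symbols, coordinates, exonic lengths and coding sequences came from GENCODE M21. Counts were analysed in R 4.3.3 with edgeR 4.0.16 (filterByExpr, minimum count 10 and minimum total 15, TMM, robust quasi-likelihood F test of mutant over wt, no covariate, Benjamini-Hochberg over 19616 genes, threshold 0.05). Log2 CPM used a prior count of 2. SEs were computed from each fold change and F statistic. The code was tested on simulated counts. Alternatives were DESeq2 1.42.0, limma-voom 3.58.1, DESeq2 size factors, no filter, GC and length offsets, a replicate block, replicates 1 and 2 only, and leaving out each library. Deviations from the group mean correlated between mutant and wt libraries of the same number (0.386, 0.123 and 0.513 over 14980 genes). Mutant replicate 1, however, correlated more with wt replicate 2 (0.583). Deviations within a group sum to 0, so replicate 3 libraries that stand apart can by themselves give positive correlations among replicates 1 and 2. The correlations thus cannot show that the numbers pair the samples, and the replicate block is an alternative only.

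The members and gene lists were chosen with earlier results of these data known. Named genes were the highest per class by TPM (the 2 highest in classes of more than 6), the 6 with the smallest p per direction, the 5 with the widest range over libraries at a mean of at least 1 CPM, Dyrk1a, Rest and 3 further genes that act on channels; other members are named to complete a family, and some members and sequences are not reported here. No label gives the embryos' litters, and p-values therefore measure only the spread between these samples, which may be technical. Python 3.11.15 with matplotlib 3.10.9 drew the figures.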

Additional observations from a re-analysis of the deposited data

How the results depend on the processing

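No member had an adjusted p below 0.05 under any of the 14 alternatives run, leave-one-out fits included. The count of members with an unadjusted p below 0.05 was 2 in the fit reported, beside 1.92% of all tested genes. With DESeq2 it was 0 (beside 1.33%), with the replicate block 5 (beside 3.9%) and with replicates 1 and 2 only 5 (beside 7.86%). The count was 1 with GC and length offsets, 1 without the filter on low counts and 6 with the replicate block and the offsets. Leaving out 1 library gave 1 to 4 (beside 5.33% of all tested genes without wt replicate 3). For the other fits the share over all genes is not given, so their counts are not read as a result about the members. The median log2 fold change of the members ranged from -0.067 without wt replicate 3 to 0.120 without mutant replicate 3, and from -0.022 to 0.019 in the other fits. Among 39 named results, with Dyrk1a not counted among them, 65 of 546 alternative values had the opposite sign, none past the threshold. Of the 39, 17 kept their sign throughout. With the GC and length offsets the log2 fold change turned to 0.013 for Dyrk1a (0.012 with the block as well), -0.032 for Cacna1h (-0.032), -0.026 for Cacnb3 (-0.027), -0.041 for Cacng3 (-0.065), -0.025 for Cacng4 (-0.022), -0.054 for Cacng7 (-0.054), -0.054 for Kcnab2 (-0.054), -0.059 for Kcne1l (-0.058), 0.016 for Kcnh7 (0.016), 0.030 for Kcnj3 (0.039) and 0.008 for Kcnk10 (0.008). Cacng3, at 0.000 in the fit reported, was -0.004 with DESeq2, -0.005 with limma-voom and -0.031 with the replicate block, and Kcnj3 was 0.028 with limma-voom and 0.003 with the replicate block. With replicates 1 and 2 only, Kcnc1 was 0.055, Kcnv1 -0.059 and Rest -0.052. Leaving out 1 library at a time, values ranged from -0.053 to 0.052 for Dyrk1a, -0.150 to 0.059 for Cacna1b, -0.172 to 0.036 for Cacna2d1, -0.235 to 0.301 for Cacng3, -0.097 to 0.122 for Cacng4, -0.056 to 0.119 for Cacng7, -0.161 to 0.030 for Kcna3, -0.458 to 0.210 for Kcnab1, -0.058 to 0.099 for Kcnab2, -0.087 to 0.065 for Kcnc1, -0.115 to 0.176 for Kcnd2, -0.001 to 0.217 for Kcnf1, -0.039 to 0.603 for Kcnh6, -0.166 to 0.006 for Kcnh7, -0.193 to 0.189 for Kcnj3, -0.492 to 0.050 for Kcnmb2, -0.444 to 0.193 for Kcnq5, -0.244 to 0.245 for Kcnv1 and -0.128 to 0.125 for Rest. The cause of these turns was not tested. The 95% interval reached to either side of the estimate by 0.176 to 1.464 log2 units, with a median of 0.436, which limits what 3 libraries per group could show.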

Other observations

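The differences between genotypes ran with GC content across the channel genes. Pearson's r between log2 fold change and the GC content of each gene's longest transcript was 0.375 over the 103 tested members, which share the same 6 libraries. The value over all tested genes is not given, so whether this is particular to the members was not tested. With GC and length offsets r was -0.046. The offsets take out the trend of each library on GC content and length, so a small r largely follows from them. These are descriptions with no test. Members above the median GC content of 52.6% had a median log2 fold change of 0.037 and the others -0.039. In mutant replicate 2 alone, relative to the wt mean, the medians were 0.195 and 0.003 log2 units. The same split is not given for the other libraries, so whether mutant replicate 2 differs from them in this was not tested. Kcnh2 and Cacnb3, both at 61.3% GC, lay on the high side, and Kcns3, at 47.6% GC, kept 0.81 with the offsets (unadjusted p = 0.0122).

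The deviations of replicate 3 from replicates 1 and 2 had an r of 0.572 between mutant and wt over the 103 members, and of 0.355 over all tested genes, again as a description. The embryonic globin gene Hbb-y, a red cell gene, had 35.5, 41.5 and 322 CPM in mutant libraries, against 42.5, 27.8 and 321 CPM in wt libraries, so it too was set apart in replicate 3 of both groups. The red cell list as a whole did not move 1 way: of its 9 genes 4 were highest in replicate 3 of both groups and 4 were lowest there, among them the adult globin gene Hbb-bs, with 329, 354 and 256 CPM in mutant libraries, against 305, 320 and 209 CPM in wt libraries. Hbb-y and Hbb-bs were chosen after their values were seen.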
